A study of Mus musculus with 2 samples.

Results

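The oligoadenylate synthetase (OAS) family of mouse dorsal skin was followed on 2 single-colour Agilent arrays. The family was chosen with earlier results of these data known. Its 8 members, Oas1a, Oas1b, Oas1c, Oas1g, Oas2, Oas3, Oasl1 and Oasl2, were found by their names in the array annotation, among 27576 genes. They had 10 of the 41165 probes left after outlier-flagged spots were dropped, each printed as a single spot. The FGF18 group was male C3H/HeN mice, 61 days old, that received 1 µg of FGF18, a secreted fibroblast growth factor, under the back skin on day 4 after anagen, the hair growth phase, had been started by depilation. The PBS group was of the same strain, sex and age, was depilated in the same way and received phosphate-buffered saline instead. Skin was collected 24 h after injection and 5 days after depilation. RNA was pooled and 1 array was used per group, so no ratio below has a replicate behind it or carries a p-value. The title of the PBS sample has the word telogen, the resting phase, while its other labels say anagen.

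OAS proteins sense double-stranded RNA and join ATP into short chains with unusual 2′-5′ bonds, called 2-5A. These chains act as an alarm signal inside infected cells. The genes are classical targets of interferon, whose receptors act through Janus kinases and transcription factors. In skin, keratinocytes, fibroblasts and immune cells can all make them. Some members have lost the synthetase activity and act by other means.

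Part of the family stood far above the bulk of genes. Oas3, Oasl1, Oasl2, Oas1a and Oas2 were 3.58- to 6.13-fold higher on the FGF18 array, whereas Oas1b and Oas1c were 1.47- and 1.22-fold higher and Oas1g was not well above background on either array. Ratios are FGF18 over PBS after each array was divided by the 75th percentile of its signals. Of the 7 measured members, 5 were at least 2-fold higher, beside 1.53% of the 16610 genes measured on both arrays, and 0 were at least 2-fold lower, beside 0.999%. At 4-fold the counts were 4 higher and 0 lower, beside 0.452% and 0.138%, and at 1.5-fold 5 higher and 0 lower, beside 3.77% and 4.91%. The median log2 ratio of the members was 2.12 and that of all genes was -0.08. Scaling to spike-in transcripts adds the same amount to every log2 ratio and moves the median of all genes to 0.74, so that the negative log2 ratios given for genes here lie above 0 by that scaling. A probe counted as measured where the scanner software marked it as well above background.

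The upstream sequences of the family are shown first, since members with very different ratios share letters there. The promoter windows run from 250 bases before to 50 after the gene start and come from RefSeq (GRCm38.p6, C57BL/6J mice, so not the strain studied). A window was found for 6 of the 8 members. Each was searched on both strands for the core of the interferon-stimulated response element (ISRE), taken as GAAA, any 2 bases and GAAA again, and for AANNGAAA, the shorter site of interferon regulatory factors (IRF), which the ISRE core contains. It was also searched for TTCNNNGAA, the gamma-activated site (GAS) of genes that respond to interferon gamma. The ISRE core was in 4 of 6 member windows and in 0 of the 2 windows of other Oas1 genes, Oas1f and Oas1h, beside 3.44% of all 32851 windows. The IRF site was in 5 of 6 members, beside 23.9% of windows, and the GAS in 1 of 6, beside 8.30%. A match describes letters only and shows no binding.

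The 4 stretches with an ISRE core are set side by side below, each turned so that the core reads from GAAA to GAAA, with the matching bases in capitals. In Oas1a, Oas1g and Oas1c, 2 overlapping cores make up 1 run of 16 bases.
Oas1a: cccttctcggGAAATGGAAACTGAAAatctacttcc
Oas1g: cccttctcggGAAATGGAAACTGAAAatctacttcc
Oas1c: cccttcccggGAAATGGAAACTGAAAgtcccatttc
Oas3: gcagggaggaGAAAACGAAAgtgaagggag

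The stretches lie at chr5:120907520-120907555 (minus strand) for Oas1a, chr5:120887606-120887641 (minus) for Oas1g, chr5:120812603-120812638 (plus) for Oas1c and chr5:120777715-120777744 (minus) for Oas3. All 36 bases were the same in Oas1a and Oas1g, and 30 of 36 in Oas1a and Oas1c, with an unbroken shared run of 19. The run begins 20 bases before the start of Oas1a and 18 before that of Oas1g. In Oas1c it lies on the opposite strand relative to the gene and reaches from 114 bases before the start towards it. The 16 capital bases occurred in the windows of 5 genes in all, the other two being Apol9a and Apol9b. Apol9b, looked up after the match was seen, had a log2 ratio of 2.56, and no ratio was available for Apol9a. Of the family members with the run, Oas1a was at 2.12, Oas1c at 0.29 and Oas1g had no ratio.

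The whole windows of 4 members follow, from the highest ratio to the lowest and from 5′ to 3′ along each gene, so that the stretch of Oas1c reads here as its reverse complement. Capitals mark ISRE cores, or IRF sites in Oasl1, which had no ISRE core.
Oas3: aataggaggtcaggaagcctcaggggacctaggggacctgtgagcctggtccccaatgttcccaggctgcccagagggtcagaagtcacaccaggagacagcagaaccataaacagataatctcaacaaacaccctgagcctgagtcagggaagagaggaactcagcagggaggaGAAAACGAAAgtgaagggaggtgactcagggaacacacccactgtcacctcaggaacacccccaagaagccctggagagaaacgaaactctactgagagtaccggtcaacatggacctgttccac
Oasl1: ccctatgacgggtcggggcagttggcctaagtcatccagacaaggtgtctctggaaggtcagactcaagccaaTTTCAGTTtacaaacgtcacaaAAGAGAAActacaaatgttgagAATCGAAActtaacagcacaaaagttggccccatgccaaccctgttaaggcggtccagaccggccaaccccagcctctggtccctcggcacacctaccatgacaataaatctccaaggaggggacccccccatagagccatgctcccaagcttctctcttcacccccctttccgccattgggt
Oas1a: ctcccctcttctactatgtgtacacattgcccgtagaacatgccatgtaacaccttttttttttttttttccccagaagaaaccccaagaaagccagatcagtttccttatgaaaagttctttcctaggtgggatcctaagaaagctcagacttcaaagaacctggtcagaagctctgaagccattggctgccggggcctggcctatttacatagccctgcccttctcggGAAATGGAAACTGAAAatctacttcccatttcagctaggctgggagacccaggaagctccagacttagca
Oas1c: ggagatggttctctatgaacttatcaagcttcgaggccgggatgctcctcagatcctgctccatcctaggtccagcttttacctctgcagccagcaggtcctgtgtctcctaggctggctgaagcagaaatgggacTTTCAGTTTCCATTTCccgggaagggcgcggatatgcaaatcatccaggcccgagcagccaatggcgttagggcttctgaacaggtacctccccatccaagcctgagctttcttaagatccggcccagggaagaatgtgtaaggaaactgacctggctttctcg

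These windows are chr5:120777610-120777909 (minus strand) for Oas3, chr5:114922990-114923289 (plus) for Oasl1, chr5:120907476-120907775 (minus) for Oas1a and chr5:120812465-120812764 (minus) for Oas1c. Oas3 had a second IRF site just after its start, 5 bases in. Oasl1 had 3 IRF sites, whose first bases were 177, 155 and 133 bases before the start. The only GAS of the family was in Oas1a, 98 bases before the start. In the window of Oasl2 (chr5:114896684-114896983, plus) none of the 3 motifs was found. Aligned over their whole length, the windows of Oas1a and Oas1g were 85.3% identical, the highest value among the 8 OAS windows, and those of Oas1f and Oas1h followed with 73.7%.

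**Figure D1:**
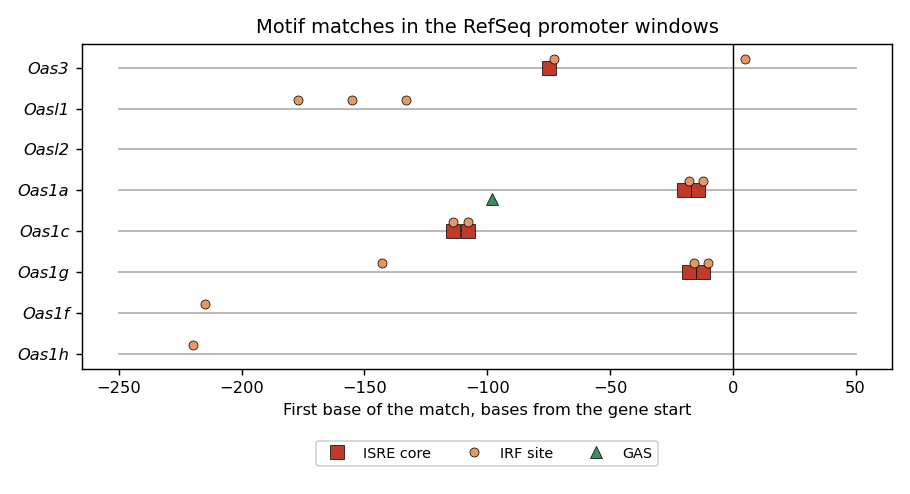
Places of ISRE core, IRF site and GAS matches (x axis, bases from the gene start) in the promoter windows of 6 OAS family members and of Oas1f and Oas1h (rows). The ISRE cores of Oas1a and Oas1g lie within 20 bases of the start, that of Oas3 75 bases before it, those of Oas1c over 100 bases before it, and Oasl2 has no match.

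Among the synthetases proper, Oas3 is described first. Its protein carries several OAS units in a row and responds to long double-stranded RNA. One Oas3 probe had a processed signal of 493 after FGF18 and 61.5 after PBS. The other had 223 and 36.7. Both probes were higher on the FGF18 array, though under its 75th percentile of 1020. On the PBS array both were close to the lower end of the measurable range. Their log2 ratios were 2.82 (95% interval 2.32 to 3.31) and 2.42 (1.84 to 3.0), with overlapping intervals. Their mean of 2.62 (6.13-fold, 95% interval 2.24 to 3.0) was the 35th highest of all genes. This and the other intervals come from the scanner software's error for each spot, which covers neither mice nor RNA preparation. With normexp background correction, which lifts dim signals, the log2 ratio of Oas3 was 1.58, the lowest of the 5 high genes (Oas2 1.77, Oas1a 2.05, Oasl2 2.05 and Oasl1 2.37). The probes lie 3369 bases apart on chromosome 5, at 121014206-121014265 and 121017575-121017634 by the coordinates in the files, which name no genome build.

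Oas1a, an active synthetase and a close relative of human OAS1, had a signal of 4250 after FGF18 and 856 after PBS. This was 4.36-fold higher (log2 ratio 2.12, interval 1.72 to 2.52). The probe is placed on chromosome 5 at 121158956-121159015. Oas1g encodes another active synthetase, which is very similar to Oas1a in sequence. Its signals were 10.8 and 7.66, below the floor of 23.3 and 24.2 that the dimmest clearly detected probes set, so no ratio is given. The files place 19 bases of the Oas1g probe on the genome, against 60 for each of the other 9 probes of the family. The bases of the probes were not used here, so how far the Oas1a probe also binds Oas1g transcripts was not tested.

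Oas2 encodes the middle-sized synthetase, with a pair of OAS units and a lipid anchor. One probe stood at 3500 and 858, which was 3.58-fold higher on the FGF18 array (log2 ratio 1.84, interval 1.44 to 2.24). The second passed the background mark only after FGF18, with 69.9 against 6.48, and was at least 2.54-fold higher, set against the PBS floor. Both probes were higher on the FGF18 array, and the dim one gives only this lower limit. They lie 4563 bases apart, at 120991042-120991101 and 120995605-120995664 of chromosome 5 in the files, and the files assign them different Ensembl transcripts of the gene.

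The OAS-like members had ratios of the same size. Oasl1, which has no synthetase activity and is known to restrain the translation of IRF7, had signals of 2710 and 415. It was 5.74-fold higher on the FGF18 array (log2 ratio 2.52, interval 2.12 to 2.92), the 40th highest of all genes. Oasl2, which joins an active synthetase to ubiquitin-like domains, had 4700 and 942. It was 4.38-fold higher (log2 ratio 2.13, interval 1.73 to 2.53). The 2 genes are neighbours on chromosome 5, away from the other OAS genes, and their probes were placed at 115198546-115198605 and 115173158-115173217.

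The remaining measured members, Oas1b and Oas1c, had smaller ratios. Oas1b is known for the resistance of mice to flaviviruses. In common laboratory strains a premature stop truncates its protein, and RefSeq lists it as a transcribed pseudogene. Its signals were 394 and 235, 1.47-fold higher on the FGF18 array (log2 ratio 0.56, interval 0.15 to 0.97), the 670th highest of all genes. Oas1c, whose protein is a relative without known synthetase activity, had 784 and 564, or 1.22-fold (log2 ratio 0.29, interval -0.11 to 0.69), the 1677th highest. The Oas1c interval includes the median of all genes, and that of Oas1b does not. Their probes were placed at 121081961-121082020 and 121060879-121060938.

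**Figure D2:**
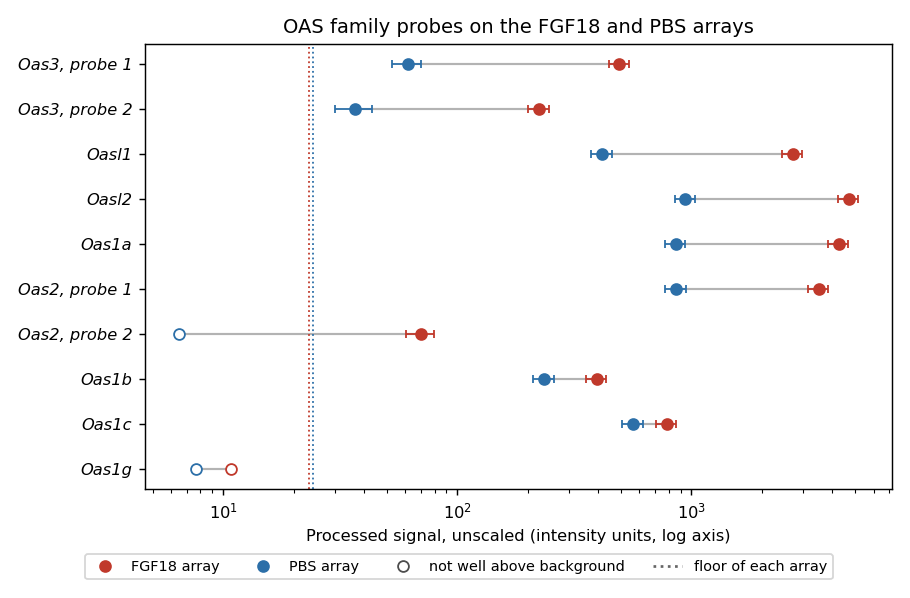
Processed signal (x axis, log scale, intensity units before scaling) of the 10 OAS family probes on the FGF18 (red) and PBS (blue) arrays, with the scanner software's spot error as bars and open points where a probe was not well above background. Oas3, Oasl1, Oasl2, Oas1a and the brighter Oas2 probe are clearly separated, while Oas1b (394 and 235) and Oas1c (784 and 564) are close together.

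In the order of ratios, Oas3, Oasl1, Oasl2, Oas1a, Oas2, Oas1b and Oas1c, a single step exceeded 2 standard errors of the difference. That step, between Oas2 and Oas1b, was 1.28 on the log2 scale with a standard error of 0.29. The steps among the 5 upper genes were 0.01 to 0.39, with standard errors of 0.28 to 0.29. Neighbours among them could not be ordered at this precision, and genes further apart in the order were not compared. Oas1b and Oas1c differed by 0.27 with a standard error of 0.29. The spot error is the wider of the available measures. Among probes printed at least 8 times, the median SD between spots in log2 ratio was 0.032 above a signal of 1000, 0.070 from 100 to 1000 and 0.17 below 100.

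The other Oas1 genes of the locus were not among the high ones. Oas1f had signals of 21500 and 12400, 1.52-fold higher on the FGF18 array (log2 ratio 0.61, interval 0.21 to 1.01). Oas1d, which is known from oocytes, had 201 and 271, 1.53-fold lower (log2 ratio -0.62, interval -1.03 to -0.21). Oas1e had 263 and 288 (log2 ratio -0.32), and both probes of Oas1h were not well above background on either array. Of the 3 measured genes, 0 were past 2-fold in either direction, beside 1.53% of all genes higher and 0.999% lower. This count does not set them apart.

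Genes that act on 2-5A or are tied to its pathway were also measured. Pde12, which degrades 2-5A, was at a log2 ratio of -0.24 over 2 probes, while its other probe passed the background mark only after FGF18 (35.1 against 16.4, at least 1.27-fold higher). Akap7, which has a related phosphodiesterase domain, was at -0.05 by 1 of its 2 probes. Abce1, whose product recycles ribosomes, was at -0.26 as the mean of 2 probes. Of these 3 genes, 0 were past 2-fold in either direction, beside 1.53% of all genes higher and 0.999% lower, so the count does not set them apart. Their median log2 ratio was -0.24.

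**Figure D3:**
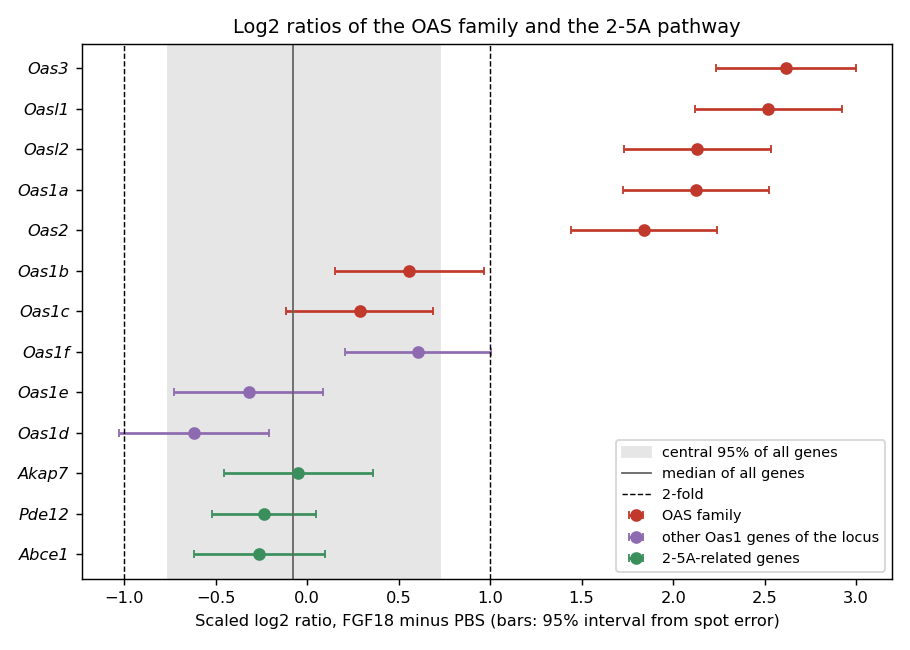
Scaled log2 ratio, FGF18 minus PBS, of the 7 measured OAS family members, 3 other Oas1 genes and 3 2-5A-related genes, with 95% intervals from spot error; the grey band holds the central 95% of all genes and dashed lines mark 2-fold. The intervals of Oas3, Oasl1, Oasl2, Oas1a and Oas2 lie wholly above 2-fold, and Oas1d, at -0.62, is the lowest.

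Along the chromosome, high and low ratios were interleaved. In the reference order the larger locus reads Oas2, Oas3, Oas1e, Oas1c, Oas1b, Oas1f, Oas1h, Oas1g, Oas1a and Oas1d. Oas2 and Oas3 lie at one end. Between them and Oas1a lie Oas1e, Oas1c, Oas1b and Oas1f, measured at -0.32, 0.29, 0.56 and 0.61, and Oas1d, with the lowest ratio of the locus (-0.62), lies beyond Oas1a. Of the 20 nearest flanking genes at both loci, 15 were measured, with log2 ratios from -0.56 to 1.08 and a median of -0.03. The 1 flanking gene past 2-fold was Trafd1, an inhibitor of innate immune signalling, at 2.12-fold. The direct neighbours on the Oas2 side, Dtx1 and Rasal1, were at -0.06 and -0.26, and 2210016L21Rik, which follows Oasl1, was at -0.28.

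**Figure D4:**
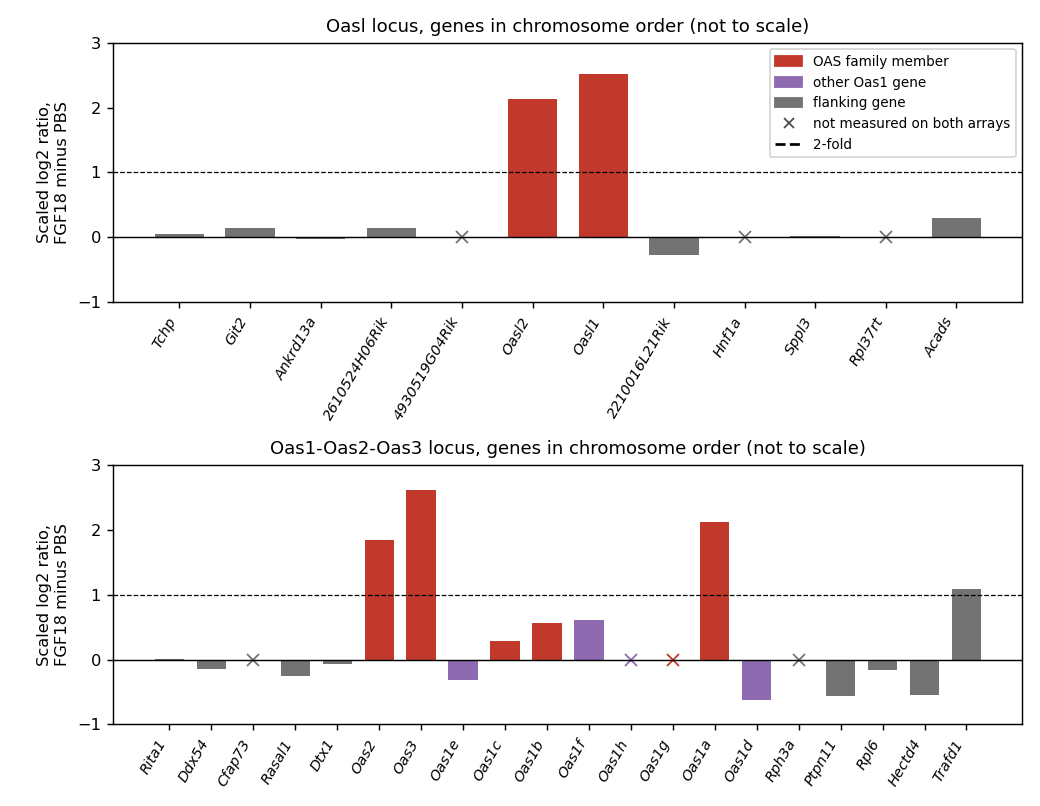
Scaled log2 ratio, FGF18 minus PBS (bars), of genes in chromosome order at the Oasl locus (top) and the Oas1-Oas2-Oas3 locus (bottom), with 5 flanking genes on either side; crosses mark genes not measured on both arrays and the dashed line 2-fold. Oasl2, Oasl1, Oas2, Oas3 and Oas1a stand above the other genes, which lie between -0.62 and 0.61, apart from Trafd1 at the right end.

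Other sensors of foreign nucleic acid were higher in part. Of 12 listed genes, all measured, 5 were at least 2-fold higher and 0 lower, beside 1.53% and 0.999% of all genes, and their median log2 ratio was 0.87. The count was 3 with normexp, beside 1.01% of all genes, and 3 with no filter on dim probes, beside 2.85%. It was 8 with spike-in scaling, beside 16.1%. Zbp1, a sensor of left-handed nucleic acid that can start necroptosis, was 6.62-fold higher. The RNA helicases Dhx58, Ddx58 (RIG-I) and Ifih1 (MDA5) were 3.34-, 2.25- and 2.25-fold higher, and a second Ifih1 probe, above background only after FGF18, was at least 2.45-fold higher. Eif2ak2, the kinase PKR, which like the OAS proteins is activated by double-stranded RNA and stops translation, was 2.08-fold higher (named with its value known). Ticam1, an adaptor of Toll-like receptor signalling, was at 0.00, and Cgas, a structural relative of the OAS enzymes that senses DNA, was at -0.17 (also named with its value known). The lowest of the list was Sting1, the adaptor of DNA sensing, at -0.36.

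Genes that carry the interferon signal were led by Irf7. Of 13 receptor, kinase and transcription factor genes, all measured, 1 was at least 2-fold higher and 0 lower, beside 1.53% and 0.999% of all genes, and the median log2 ratio was 0.22. With spike-in scaling the count was 8 of 13, beside 16.1% of all genes. The 1 was Irf7, which amplifies interferon production and whose translation Oasl1 is known to limit, at 7.17-fold. Irf9 and Stat2, parts of the factor that binds the ISRE, were 1.69- and 1.53-fold higher. Irf1, another transcription factor of the interferon response, was 1.44-fold higher, the receptor gene Ifngr1 was at -0.08, and Irf3 was lowest at -0.22. Among 4 feedback inhibitors, Usp18, which blocks the type I receptor, was 4.39-fold higher, and Socs3, Socs1 and Pias1 were at 0.22, 0.08 and -0.12.

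Interferon genes themselves were dim or undetected. Of 20 listed genes 14 had a probe, and 5 were measured on both arrays, all with signals under 100. Ifna6, Ifnl3, Ifna13 and Ifnab were at log2 ratios of -0.53, -0.46, -0.44 and -0.36 and Ifna9 at 0.08, with standard errors of 0.25 to 0.32. Ifnb1 and Ifng passed the background mark only after FGF18. Ifnb1, the beta interferon gene, had signals of 75.9 and 6.47 and was at least 2.76-fold higher. Ifng, the gene of interferon gamma, had 87.2 and 21.2 by one probe, at least 3.17-fold higher, and 48.8 and 14.1 by the other, at least 1.76-fold. The PBS signals of Ifnb1 and Ifng were under that array's floor of 24.2, and their signals after FGF18 were under 100. No interferon gene had a ratio of 2-fold or more measured on both arrays, a requirement that leaves out Ifnb1 and Ifng. With probes detected on 1 array included, 2 interferon genes were at least 2-fold higher, beside 3.17% of all genes. With no filter the count was 3, beside 2.85%.

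**Figure D5:**
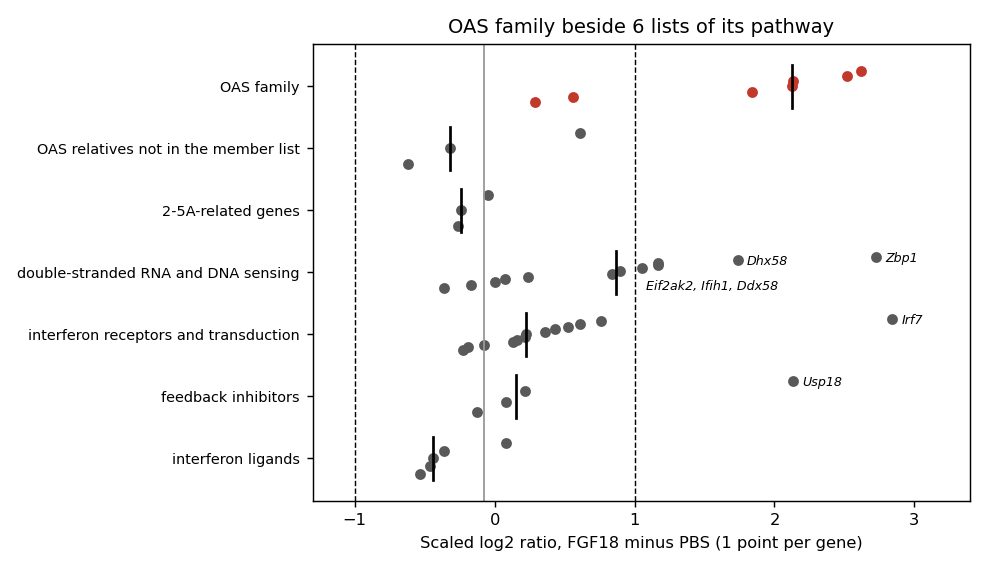
Scaled log2 ratio, FGF18 minus PBS, of each measured gene in the OAS family (red) and in 6 lists of its pathway (grey), with list medians as black bars, the median of all genes as a grey line and 2-fold as dashed lines. The family median of 2.12 lies above those of the lists, which run from -0.44 for interferon ligands to 0.87 for nucleic acid sensors.

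The genes most like the family were taken as the bright genes, with all probes measured, whose log2 ratio lay nearest to the family median of 2.12. With a single ratio per gene this is a weak measure of likeness. The nearest 5 were Usp18 (2.13), Gbp2b (2.10), Ccl7 (2.15), Ifi44l (2.10) and Plac8 (2.16), within 0.03 of the median. They were picked for this closeness, so it is no separate result.

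Markers of skin were detected, with the keratinocyte markers Krt5 at signals of 192000 and 177000 and Krt14 at 141000 and 123000, and fibroblast, macrophage, endothelial and fat cell markers also present. The hair cycle phase was not checked. In bulk skin, more cells of a type and more RNA per cell cannot be told apart. The 4 fibroblast markers had a median log2 ratio of -0.55 and the 4 keratinocyte markers -0.23. Markers of immune cells differed in direction. The 6 macrophage markers had a median log2 ratio of -0.30 and a summed signal, in units of each array's 75th percentile, of 11.2 after FGF18 and 12.8 after PBS. Cd68 and Adgre1 were at 0.30 and 0.13, and the other macrophage markers ran from -0.71 (Mrc1) to -0.28 (Cd14). A further Adgre1 probe passed the background mark only after FGF18, at least 1.46-fold higher, and a further Csf1r probe only after PBS, at least 1.36-fold lower after FGF18. Of 5 T cell markers 4 were measured on both arrays, with log2 ratios below 0 (0.637 against 0.859 summed), while a second Cd4 probe passed the background mark only after FGF18 and was at least 2.91-fold higher. Cd8a was not well above background on either array. The 4 measured neutrophil markers summed to 2.86 and 2.503, of which S100a8 was 3.52-fold and Csf3r 1.85-fold higher, and S100a9 and Cxcr2 were 1.27- and 1.53-fold lower. Of 4 NK cell markers, Klrd1 was 1.99-fold higher (0.849 against 0.426), Ncr1 and Klrb1c were measured on the FGF18 array alone, at least 3.88- and 1.62-fold higher, and Eomes was not well above background on either array. The 4 markers of Langerhans and dendritic cells summed to 2.77 and 4.21, mostly from Cd207 (signals of 2040 and 3000, log2 ratio -0.74). Itgax and Xcr1 were at -0.17 and -0.30, and Flt3 was at 0.25. Siglech of plasmacytoid dendritic cells, and Cd79a and Ms4a1 of B cells, were not well above background on either array. The part of these cells in the OAS ratios was not tested. Of 43379 probe spots per array, 62.4% after FGF18 and 61.5% after PBS were well above background, and 0 spots were saturated.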

How the data were processed

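Poly(A) RNA of full-thickness skin was labelled with Cy3 (200 ng, per the labels' protocols). The labels name 3 mice without saying whether per group. The design text says RNA was pooled per group, the extraction protocol that mice were extracted separately. Deposited intensity values come, per the file headers, from the Feature Extraction software of Agilent, version 9.5.3.1 (protocol GE1-v5_95_Feb07, design 014868). The processed signal is background-subtracted and detrended, with a surrogate near background. Other columns of the deposited files are flags and spot types. The deposited series table holds a ratio of each processed signal to its array's median (83.8 and 80.0), found by setting it against the scanner files. The authors' scaling beyond this and a genome build are not given in the sources used here.

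Here, log2 processed signals were reduced by each array's 75th percentile (1020 for FGF18 and 896 for PBS). Control and outlier-flagged spots were left out, spots of a probe averaged, and ratios of a gene's measured probes averaged. Lower limits use the higher of the dim signal and the array's lowest well-detected signal. Names came from RefSeq (GRCm38.p6): 23374 probes by accession, 6733 by symbol, 2907 by synonym, 8160 kept. Of these 41174 probes, 9 had only outlier-flagged spots and were not used, which left 41165. Promoter windows were searched by exact letters. The calculation of fold counts was checked on simulated data, with known folds put on probes with signals over 100. This does not cover the folds of dim probes or differences between mice. Tools were R 4.3.3, limma 3.58.1, Python 3.11.15, numpy 2.4.6 and pandas 2.3.3.

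Named genes were all members, the other Oas1 genes, the 2-5A-related genes, and of other pathway lists the 4 largest absolute log2 ratios, the 1 nearest 0 and limits of at least 2-fold. Cgas, Trafd1, Eif2ak2, the neighbours at the loci and Apol9b fall outside this rule or were added from the locus and promoter descriptions. Some genes of the lists are not reported here. The members and lists were chosen with earlier results of these data known. Alternatives were other scalings, background correction, the series table, filters, probe choice and thresholds. Single arrays allow no test.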

Additional observations from a re-analysis of the deposited data

How the results depend on the processing

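The number of arrays limits every value. Oas3, Oas2, Oas1a, Oasl1 and Oasl2 were at least 2-fold higher in all alternatives that measured them, except at a threshold of 4-fold, where Oas2 was not, and with signals over 100 on both arrays, where Oas3 dropped out and 4 of 6 remained. With spike-in scaling (7 E1A probes) all 7 were past 2-fold, as were 16.1% of all genes, whose median moved to 0.74. The median of all genes was otherwise -0.18 to 0.11. The family median of 2.12 was 2.23 with median scaling, 2.31 unscaled, 2.94 with spike-in scaling, 1.77 with normexp, 2.25 with the series table and 1.98 with signals over 100. Of 40 measured pathway genes, 7 were at least 2-fold higher, beside 1.53% of all genes. The count was 19 with spike-in scaling, beside 16.1%, and 5 with normexp, beside 1.01%. At 1.5-fold and 4-fold the counts were 12 and 3, beside 3.77% and 0.452%. The share of all genes at least 2-fold higher was 3.17% with probes detected on 1 array included and 1.01% with normexp. Causes were not tested. No paired analysis was possible because each group has 1 array, and leaving out replicates was likewise not run.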
